A study of Mus musculus with 4 samples.

Results

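Synonymous coding SNPs are single base differences between 2 mouse strains that lie in a codon and leave its amino acid the same. The members described here are the rows whose deposited annotation is synonymous coding, whose location is an exon, which lie on chromosomes 1 to 19 and which list different bases for the strains. There were 17549 such rows, at 17543 positions of 5134 genes, out of 50905 exonic autosomal SNPs that list different bases (34.5%), and they held 40.5% of the reads counted there. Non-synonymous coding SNPs (7874) and SNPs in 3' untranslated regions (17821) served for comparison.

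The mice were F1 offspring of the inbred strains C57BL/6J (B) and DBA/2J (D), fed chow, and RNA came from the gonadal fat pad. In both reciprocal crosses every animal carries 1 B and 1 D chromosome of each autosome, and the crosses differ in which strain was the mother (written first, BxD or DxB). Each library was an equimolar RNA pool, of 3 animals for those labelled BxD_female, BxD_male and DxB_male and of 2 animals for the one labelled DxB_female, so that differences between single animals are not visible. The labels give the age as 8 weeks, and the paper's methods differ from that. With 1 pool for each cross and sex, p-values rest on the spread among 4 pools. Unless the 2 alleles of a pool are paired, that spread also holds differences between pools which both alleles share.

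A synonymous SNP is a tag of the chromosome a transcript came from, and it does not itself change the encoded residue. Other exonic SNPs tag the chromosome as well, and non-synonymous ones in the same gene can still make the proteins differ. Because both alleles share one nucleus, an unequal read count is usually taken to reflect regulation encoded next to the gene, or imprinting when it follows the parent and not the strain. SNPs of one transcript sit on the same molecules, and their allele shares are then readings of one quantity. Members were grouped by gene, and whether those of a gene lie in one transcript was not tested. Reads were aligned to the B genome, and whether known D variants were masked in it is stated differently within the sources used here.

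For 2 libraries the label and the file name give a different cross and sex: the library labelled DxB_female has a file named BxD male, and the library labelled BxD_male has a file named DxB female. On the X chromosome, where a male carries only its mother's copy, the median D share of the exonic SNPs with 20 or more reads (72 to 99 per library) was 41.8% in the library labelled BxD_female, 0% in the one labelled DxB_female, 40.9% in the one labelled BxD_male and 100% in the one labelled DxB_male, against both labels. Comparisons of B with D do not use cross or sex. Results that do are given under both identities, and the libraries are called by their labels throughout. Exonic autosomal SNPs held 2030283 to 2608193 B reads and 1729735 to 2202138 D reads per pool. Adipocyte marker genes with a counted exonic SNP (4 of 12 listed, Lpl and Car3 among them) held 478005 to 662154 of these reads per pool, macrophage markers (3 of 9) 1265 to 2440, endothelial markers (3 of 7) 374 to 611 and lymphocyte markers (3 of 8) 6 to 52. Muscle markers (3 of 7) gave 93, 3, 42 and 1 reads and epididymis markers (4 of 8) 0, 0, 0 and 300 reads in the libraries labelled BxD_female, DxB_female, BxD_male and DxB_male, and their part in the results was not tested. The adipocyte markers Adipoq, Plin1, Fabp4 and Pparg had no exonic SNP counted here.

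The sequences that follow show what distinguishes the alleles at the members on which the results turn. Each is a window of coding strand from mm9 (NCBIM37) with the codon of the SNP in capitals, first as B and then with the D base put in as the files list it at every SNP. Cox8a (chr19:7291913-7291939, minus strand) and Ptrf (chr11:100831550-100831576, minus) held almost no D read, the C4a pair (chr17:34870949-34870975 and chr17:34876663-34876689, minus) and the Ildr2 pair (chr1:168239255-168239281 and chr1:168239228-168239254, plus) were called in opposite directions, and Car3 (chr3:14870099-14870125, plus) had the most reads. Sgce (chr6:4639635-4639661, minus), together with Plagl1, differed most between pools among genes with 50 or more synonymous reads in each pool.
Cox8a B, valine: ccgcgggctcagGTCcactcgaagccg
Cox8a D: ccgcgggctcagGTTcactcgaagctg
Ptrf B, threonine: cagatccagctgACCcaagcccagctg
Ptrf D: cagatccagctgACTcaagcccagctg
C4a low SNP B, phenylalanine: aggctgactgccTTCgtgctgaagatt
C4a low SNP D: aggctgactgccTTTgtgctgaagatt
C4a high SNP B, alanine: ttctactttgtgGCTtacttctatcac
C4a high SNP D: ttctactttgtgGCCtacttctatcac
Ildr2 low SNP B, alanine: agccccgcacccGCAcgccgccggccg
Ildr2 low SNP D: agccccgcacccGCCcgccgccggccg
Ildr2 high SNP B, arginine: ggagacggggagCGTggctggacctac
Ildr2 high SNP D: ggagacggggagCGCggctggacctac
Car3 B, tyrosine: gactattggaccTATcacggctccttc
Car3 D: gactattggaccTACcacggctccttc
Sgce B, glycine: caccctgtaactGGAgaggttatacct
Sgce D: caccctgtaactGGGgaggttatacct
In all of these windows the capital codons of B and D encode the residue named, the Cox8a window is the only one that holds a further listed SNP, and the window of the low C4a SNP crosses the edge of its coding exon.

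Placed on the coding exons of GENCODE M1, 17412 members fell in a codon and 17395 of these (99.9%) gave the same residue from both alleles, so the deposited annotation and the gene models differed at 17 translated members. The third codon position held 94.7% of members and the first 4.49%. Transitions made up 83.1%. Leucine (1887 members), serine (1759) and alanine (1703) were the residues most often tagged. Depth was uneven. The median member had 79 reads over the 4 pools, 3624 had under 10 and 1327 had 1000 or more. Reads were present in all 4 pools at 13884 members. A gene held 1 member in 1916 cases and 5 or more in 1123.

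The first comparison asked how far the B and D alleles were balanced over synonymous SNPs as a whole. The D allele gave 47.7% of synonymous reads in the library labelled BxD_female (95% Wilson interval 47.6% to 47.8%, 1930886 reads), 47.8% in the one labelled DxB_female (47.8% to 47.9%, 1880910 reads), 45.7% in the one labelled BxD_male (45.6% to 45.7%, 1837959 reads) and 47.6% in the one labelled DxB_male (47.6% to 47.7%, 1578812 reads). The intervals cover counting error only and take all counts as independent. Mates were counted as single reads, and 1 read can be counted at several SNPs, so the intervals are too narrow. The library labelled BxD_male was lower than the other three, which lay within 0.2 percentage points of each other. Without the gene Car3 the gap was smaller. The ratio of B to D reads went from 1.10, 1.09, 1.19 and 1.10 with it to 1.11, 1.12, 1.14 and 1.13 without it, in the same order of libraries.

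The mean B to D ratio of synonymous SNPs was 1.12 ± 0.05 (SD, n = 4 pools). Non-synonymous SNPs gave 1.498 ± 0.03, above the synonymous ratio in 4 of 4 pools, with a log2 difference (synonymous minus non-synonymous) of -0.42 ± 0.04 (exact sign-flip permutation over the pools, two-sided p = 0.13, which is the smallest p that 4 pools allow, n = 4). SNPs in 3' untranslated regions gave 1.11 ± 0.01, and the difference from synonymous SNPs was 0.02 ± 0.06 on the log2 scale (exact p = 0.875, n = 4), less than the spread between pools. When SNPs with under 1% of their reads from either allele were left out, 15253 members remained and the synonymous ratio was 1.04 ± 0.04.

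SNPs with no D read were rarer in the synonymous class. Among members with 20 or more reads, 237 of 12551 (1.89%) were counted from B alone and 16 (0.127%) from D alone. The same shares were 7.47% and 0.403% for 5210 non-synonymous SNPs and 2.66% and 0.115% for 12196 SNPs in 3' untranslated regions. A listed SNP at which the strains carry the same base would also be counted from B alone, and whether D carries the listed base was not tested here. Of all synonymous members with that depth, 69.4% had a D share between 40% and 60%, 15.1% between 20% and 40%, 9.47% between 60% and 80% and 2.44% under 1%. Most members thus lay near equality, with more on the B side than on the D side.

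**Figure D1:**
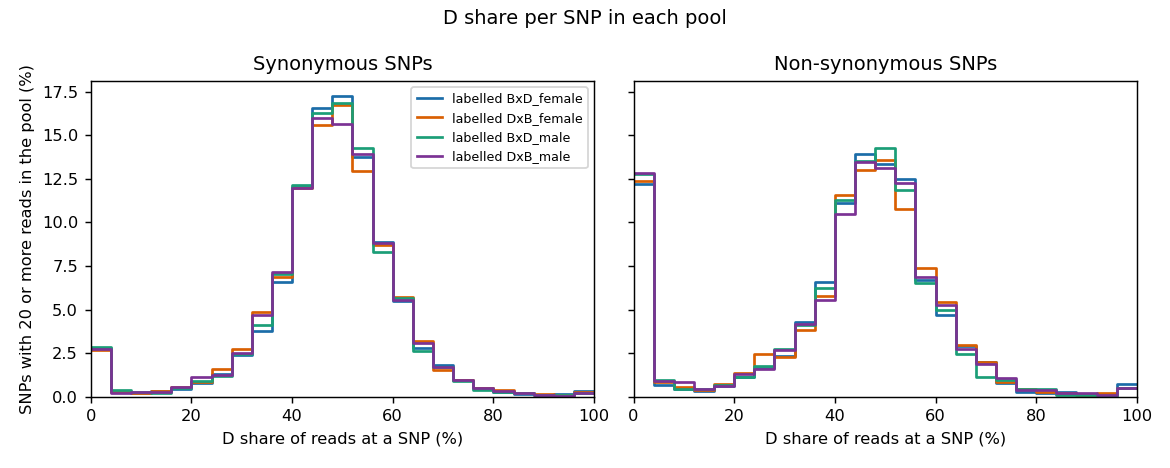
The plots show, for synonymous SNPs (left) and non-synonymous SNPs (right), the percentage of SNPs with 20 or more reads in a pool (y axis) that fall in each step of D share (x axis, %), with 1 line per pool named by its label. All 4 pools overlie each other, and the first step, which holds SNPs with almost no D read, is much taller for non-synonymous than for synonymous SNPs.

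The 4 members counted from B alone with most reads were in Cox8a, a subunit of cytochrome c oxidase, Bat1a, an RNA helicase, H2-T23, a non-classical class I gene, and Prdx1, a peroxide reducing enzyme. Cox8a (chromosome 19, position 7291925) had 823, 986, 1056 and 902 B reads in the libraries labelled BxD_female, DxB_female, BxD_male and DxB_male, and no D read in any. Its 3767 reads allow a share of the listed D base of up to 0.0796% (3 counts of the total), and the B base was at least 1256-fold higher. Bat1a had 3220 B and 0 D reads, H2-T23 2848 and 0, and Prdx1 2123 and 0. H2-T23 belongs to a family of near-identical genes whose reads the alignment could have split, and its value is uncertain. All of the 4 passed edgeR's quasi-likelihood test (adjusted p from 7.74e-27 to 1.85e-25). Stat3, a transcription factor of cytokine signalling, had 176, 180, 129 and 158 B reads and 0 D reads at position 100765040 of chromosome 11. Adra2c, an adrenergic receptor, had 20 B reads and 0 D reads at position 35622711 of chromosome 5. The paper describes resequencing of D DNA that read the base of B at the sites in Stat3 and Adra2c, so neither is taken here as a difference between the alleles. Of the sites counted from B alone that it resequenced, the paper reports that none was verified. The 4 members with most reads are not among the sites it lists, and the D base there was not tested. Their values, with the bound for Cox8a, describe the alleles only if D carries the listed base. In the other direction, Klhl6 had 0 B and 182 D reads and Zkscan3 0 B and 149 D reads, the deepest members counted from D alone.

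Members counted from B alone were unevenly placed. They lay in 163 genes, of which 76 had no other member with 20 reads. In 21 genes all of the 2 or more members with that depth were counted from B alone. In 66 genes another member did carry D reads, with a median D share of 38.8% at those other members, and in 31 of the 66 that share was between 30% and 60%. Transitions made up 70.0% of the members counted from B alone and 83.4% of the other members of that depth.

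The D share also went with the sequence around the SNP. Members with no other listed SNP within 50 bp (11308, 64.4% of all) had a D share of 47.9% ± 1.5 (SD, n = 4 pools), members with 1 such neighbour 47.4% ± 0.5, with 2 neighbours 45.6% ± 0.4 and with 3 or more 34.8% ± 0.7. The last group was lower than the first by 13.1 ± 1.6 percentage points, in 4 of 4 pools (exact sign-flip permutation, two-sided p = 0.13 before and after adjustment over 4 such comparisons, the smallest possible, n = 4). Without Car3 the first group was at 47.7% ± 0.2. The median D share per member with 20 or more reads was 48.7% with 0 neighbours and 39.6% with 3 or more. Counted from B alone were 1.46%, 1.97%, 3.67% and 5.62% of members with 0, 1, 2 and 3 or more neighbours.

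Base composition gave smaller differences. Where B has G or C and D has A or T the D share was 46.0% ± 0.4, and where B has A or T and D has G or C it was 48.5% ± 0.2 without Car3, lower in 4 of 4 pools in the first case (2.68 ± 1.67 points with Car3, exact permutation p = 0.13, the smallest possible, n = 4). A CpG present in B alone went with a D share of 45.3% ± 0.4 and a CpG present in D alone with 50.2% ± 0.1, a gap of 4.94 ± 0.34 percentage points. Transversions had 44.5% ± 0.2 and transitions 47.6% ± 1.2. These are shares of summed reads, in which deep members weigh most. The median D share per member with 20 or more reads was 48.1% for transversions and 48.4% for transitions. It was 47.1% with a CpG in B alone and 49.4% with a CpG in D alone. For a change from G or C to A or T it was 47.3%, and for the reverse 49.3%. These features overlap in the same SNPs and were not separated.

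Counts at synonymous SNPs were then summed within each gene and the alleles compared, which asks in how many genes the D and B alleles differ. Only 1 SNP of any group within 18 bp was used (15983 of 17549 members), which limits how often a read is counted at several SNPs. It does not exclude this, since a read of 50 bases can cover kept SNPs that lie over 18 but under 50 bp apart. Of 5091 genes with a sum, 625 (12.3%) were called at an adjusted p under 0.05 by edgeR's quasi-likelihood test, fitted together with the sums of all other annotation classes, where 15.2% of 15947 sums were called. B was the higher allele in 382 (7.503%, against 11.1% of all sums) and D in 243 (4.77%, against 4.07%). With the pool as a replicate block, which pairs the alleles of 1 pool, 1352 synonymous sums were called (26.6%, against 26.5% of all sums), 709 with B and 643 with D higher, and 618 of the 625 were among them. When both alleles of a pool were scaled by a single library size the split became 445 with B and 177 with D higher, since that scaling moved the median log2 D to B ratio of synonymous sums from 0.00 to -0.11.

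The direction was the same in all 4 pools for 616 of the 625 genes. In 246 the weaker allele had under 20 reads, and 199 of these were higher from B and 47 from D. In the other 379 genes B was higher in 183 and D in 196, their median absolute log2 ratio was 0.98, 184 differed 2-fold or more and 48 less than 1.5-fold. Removing SNPs with under 1% of reads from either allele left 347 of the 625 genes called, and 150 of them had no SNP left. Among genes with 100 or more synonymous reads 15.1% were called (471 of 3113), and the share of all sums at that depth is not given here. By chromosome the share of genes called ran from 8.74% (chromosome 19, 18 of 206) to 22.2% (chromosome 10, 32 of 144).

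The largest ratios in favour of D, among called genes with the same direction in every pool and 20 or more reads of the weaker allele, were found in 7 genes. Smarce1, a subunit of the SWI/SNF chromatin remodelling complex, had D shares of 92.6%, 93.6%, 96.3% and 95.7% in the libraries labelled BxD_female, DxB_female, BxD_male and DxB_male (37 B and 628 D reads), a log2 D to B ratio of 4.18 ± 0.23 (standard error, edgeR adjusted p = 7.02e-10). All 4 pools were close together and far above equality. Its sum in the 3' untranslated region did not follow, with 194 B and 139 D reads (log2 ratio -0.39, edgeR adjusted p = 0.355), and a member left out by the 18 bp filter had 23 B and 0 D reads. Atp1a4, a sodium pump subunit, had D shares of 92.1%, 92.2%, 87.3% and 88.6% (log2 ratio 3.32 ± 0.27), and its 3' untranslated region was also higher from D (2.45, edgeR adjusted p = 8.51e-06, 89 B and 454 D reads). Rufy4 had 63.2%, 91.1%, 86.2% and 85.8%, an SD of 12.5 points where the other 6 genes had 1.72 to 6.36, and its ratio of 2.75 ± 0.46 was accompanied by 3.24 at non-synonymous SNPs and 2.77 in the 3' untranslated region.

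Hal, the enzyme that begins histidine breakdown, had a log2 ratio of 2.88 ± 0.42 (69 B and 480 D reads) and 2.38 in the 3' untranslated region. Tspan8, a tetraspanin, had 2.88 ± 0.36 (21 B and 147 D reads). Tsen34, a subunit of the endonuclease that splices tRNA, had 2.88 ± 0.28 from 38 B and 262 D reads, while its non-synonymous SNPs had 178 B reads and 0 D reads, which is the opposite direction within the same coding sequence. Map3k7, a kinase upstream of NF-kappa-B, had 2.55 ± 0.19 (97 B and 534 D reads) but 0.22 in the 3' untranslated region (1245 B and 1345 D reads). Of the 7 genes, Atp1a4, Rufy4 and Hal were thus called for D from another part of the gene as well.

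The largest ratios in favour of B by the same rule were led by Ptrf, which encodes the caveolar coat protein cavin-1. Its 2 members gave D shares of 0.0816%, 0.0454%, 0.0757% and 0.0711% in the libraries labelled BxD_female, DxB_female, BxD_male and DxB_male, from 41208 B and 28 D reads (log2 ratio -10.41 ± 0.23, edgeR adjusted p = 1.42e-13). The non-synonymous sum of Ptrf had 8188 B and 15 D reads. The 2 synonymous members had D shares of 0.0412% and 0.106% over the pools, and neither was left when SNPs of under 1% were removed. Whether D carries the bases listed for Ptrf was not tested. Cdsn, a skin adhesion protein, had shares of 0.880%, 1.01%, 2.34% and 2.66% (log2 ratio -5.60 ± 0.45), with -5.90 at non-synonymous SNPs and -5.81 in the 3' untranslated region. Cacna1e, a calcium channel subunit, had -4.34 ± 0.35 over 22 members and -4.67 in the 3' untranslated region. These 3 genes were called for B at non-synonymous SNPs and, where it had a sum, in the 3' untranslated region.

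In other genes of the group the readings differed within the gene. Ppig, a peptidyl-prolyl isomerase, had a log2 ratio of -5.48 ± 0.23 (2477 B and 50 D reads), but its 7 members fell into 5 with D shares from 0% to 0.191% and 2 with 44.7% and 45.6%. Without SNPs of under 1% its ratio was -0.16 (edgeR adjusted p = 0.633), without the 18 bp filter -1.75, while its non-synonymous sum had 3808 B and 3 D reads. Acaa1a, a peroxisomal thiolase of fatty acid oxidation, had 2 members: 920 B and 1 D read at position 119259091 of chromosome 9 (0.109%, Wilson interval 0.0192% to 0.612%) and 28 B and 33 D reads at position 119250668. Its sum gave -4.70 ± 0.28, with SNPs over 50 bp apart -9.21, without the first SNP 0.35 (edgeR adjusted p = 0.753), and its 3' untranslated region had 57 B and 58 D reads. A RIKEN cDNA gene with 1 member at position 7583992 of chromosome 19 had -4.26 ± 0.25 against 0.16 in its 3' untranslated region. A predicted gene of the MHC region (5 SNPs used between positions 34112702 and 34115425 of chromosome 17) had -4.43 ± 0.28 and -1.77 at non-synonymous SNPs.

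**Figure D2:**
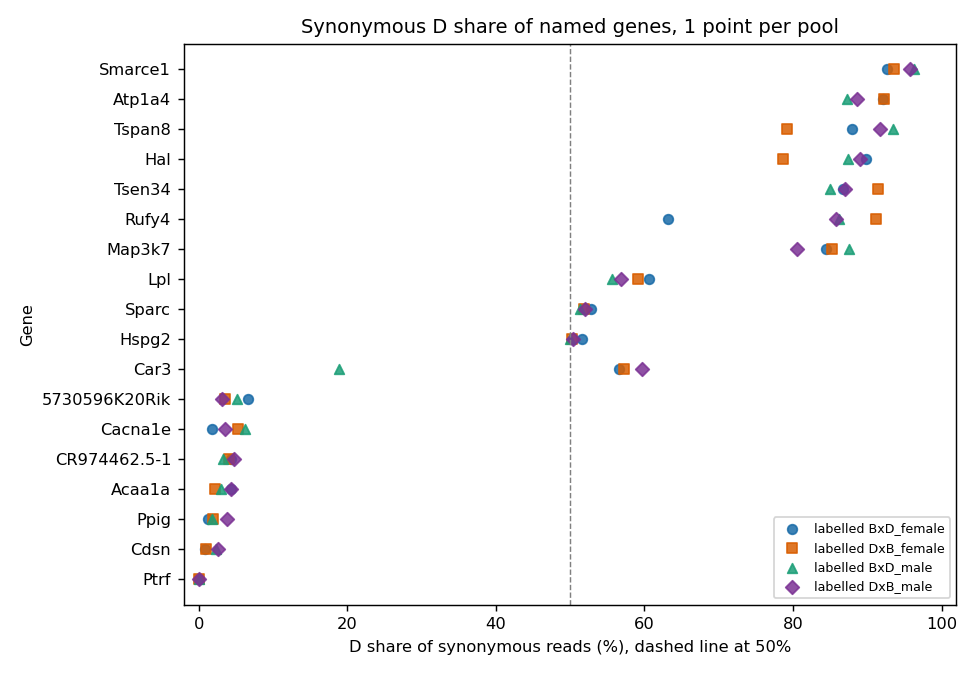
The plot shows the D share of synonymous reads (x axis, %) in each of the 4 pools (1 point per pool, named by label) for the genes with the largest ratios and those with most reads (y axis), with a dashed line at 50%. Pools lie close together within genes except for genes such as Rufy4, with 1 point at 63.2%, and Car3, with 1 point at 18.9%.

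Among the genes with most synonymous reads, Lpl, the lipoprotein lipase that releases fatty acids for uptake by fat, had D shares of 60.6%, 59.2%, 55.6% and 56.8% in the libraries labelled BxD_female, DxB_female, BxD_male and DxB_male (127437 B and 175683 D reads, log2 ratio 0.56 ± 0.17, edgeR adjusted p = 0.0283). D was higher in every pool, its 7 members ranged from 50.01% to 64.2%, and its non-synonymous sum gave 0.61. Its 3' untranslated region was not called (96636 B and 108011 D reads, log2 ratio 0.27, edgeR adjusted p = 0.315). The call was lost without the library labelled DxB_female (0.54), without the one labelled DxB_male (0.58) and without SNPs of under 1% from one allele (0.55). Hspg2, the basement membrane proteoglycan perlecan, had 51.6%, 50.3%, 50.04% and 50.4% over 45 members and was not called (edgeR adjusted p = 0.804, with the block 2.31e-08). Its 3' untranslated region had 16155 B and 4782 D reads (log2 ratio -1.64). Sparc, a matrix glycoprotein of fat, had 52.9%, 51.8%, 51.4% and 52.0% (adjusted p = 0.601, with the block 8.47e-12, both from edgeR). Hspg2 held 54 members, and 88 were listed for Pcdhgb4, whose exons belong to a cluster of similar protocadherin genes and may share reads (489 B and 315 D reads, edgeR adjusted p = 0.0719, with the block 0.00162).

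Car3, the carbonic anhydrase that is abundant in rodent fat, had a single member, with 357459 reads or 4.95% of all synonymous reads. D shares were 56.5% (36036 B and 46846 D reads), 57.3% (48043 and 64437), 18.9% (59666 and 13868) and 59.7% (35717 and 52846) in the libraries labelled BxD_female, DxB_female, BxD_male and DxB_male. The library labelled BxD_male was far below the others at this SNP. The 9 SNPs in the 3' untranslated region of Car3 gave summed D shares of 54.9%, 56.3%, 55.6% and 56.8% in the same order, so no library stood apart there. The log2 ratio of the synonymous sum was 0.11 ± 0.34 (edgeR adjusted p = 0.883) and that of the 3' untranslated region was 0.45 (adjusted p = 0.097).

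The spread of a gene's D share between pools was compared with counting. Among 2241 genes with 50 or more synonymous reads in each pool, the median SD over the 4 pools was 3.15 percentage points, against a median of 2.84 from counting alone, and 77.9% had an SD under 5 points. Across these genes, which are no independent replicates, Pearson's r between pools was 0.841 to 0.884, and 0.745 to 0.815 over the 2188 genes with a share between 1% and 99%. An SD of 10 points or more was seen in 29 genes. Plagl1 and Sgce had the highest values (56.5 for both), followed by Btbd9 (21.8) and Car3 (19.5).

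At single SNPs the same test asked how readings within a gene compare. It called 1964 of 17546 members with a read (11.2%, against 13.6% of all 50891 SNPs), 1170 with B higher (6.67%, against 9.52%) and 794 with D higher (4.53%, against 4.11%). With the pool as a block it called 3516 members (20.04%, against 21.0%). The share called rose with depth, from 0.690% of members with 1 to 9 reads to 11.5% at 20 to 99, 15.8% at 100 to 999 and 18.9% at 1000 or more. Called members lay in 1061 genes, of which 591 were also called from their sum.

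Most genes with several called members were called on 1 side. Of 383 genes with 2 or more, 331 had all calls in 1 direction and 52 (13.6%) had calls in both, with 151 such genes when the pool was a block. The matching share over all exonic SNPs is not given here, so 13.6% is not read as particular to synonymous SNPs. Among the 52, 17 were called as a sum and 19 had a called member with no D read. In 1562 genes with 3 or more members of 20 reads, the median SD of the D share among members was 5.98 percentage points and the median range 14.8, and 1083 stayed within a range of 20 points.

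The widest gaps between opposite calls, with 50 or more reads at both SNPs, were in Map3k7, C4a, Morn4, Ildr2 and Rps3. Map3k7 had 6 members called for D, with shares up to 97.1% (5 B and 169 D reads at position 32064313 of chromosome 4), and 1 called for B at position 32068550 in another exon, with 56 B and 3 D reads. In C4a, a complement component gene whose near-identical copy C4b makes its reads uncertain, 4 members were called for B and 2 for D. Its SNP at position 34870961 of chromosome 17 had 357 B and 0 D reads, while position 34876675 had 85.2%, 85.2%, 79.9% and 83.0% D in the 4 libraries (520 B and 2701 D reads), and 2 deep members lay at 49.9% and 52.8%. The C4a sum was not called (log2 ratio -0.50, edgeR adjusted p = 0.0973, with the block 3.07e-09). It was called for B with a single library size per pool (-0.60) and for D without SNPs of under 1% (0.72, edgeR adjusted p = 0.0247), and its non-synonymous sum was called for B (10771 B and 4879 D reads, -1.03, edgeR adjusted p = 3.54e-04). Morn4 had 122 B and 0 D reads at position 42160769 of chromosome 19, which lies outside the coding exons of the gene models, and 21 B and 90 D reads at position 42150702, and its sum was not called (edgeR adjusted p = 0.185, with the block 0.0448). Without SNPs of under 1% the Morn4 sum was called for D (log2 ratio 2.16, edgeR adjusted p = 9.82e-04).

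Ildr2, a membrane protein of the immunoglobulin family, held its opposite calls in 1 exon, 27 bp apart. Position 168239269 of chromosome 1 had 70 B and 0 D reads, and position 168239242 had 16 B and 60 D reads, with D shares of 90.9%, 73.7%, 66.7% and 85.7% in the 4 libraries. Its members outside that exon lay between 40.3% and 50.7%, near equality. Rps3, a ribosomal protein gene with processed copies elsewhere in the genome, ranged from 6.76% (317 B and 23 D reads) to 85.3% (820 B and 4745 D reads) among 5 members, and its sum favoured D (log2 ratio 1.25 ± 0.16, edgeR adjusted p = 2.29e-05) while its 3' untranslated region gave -0.47. With SNPs over 50 bp apart the Rps3 sum turned to -0.47. Reads of such copies cannot be told apart from those of Rps3 here.

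The likeness of neighbouring SNPs fell with distance. Consecutive synonymous SNPs of a gene, each with 20 or more reads, formed 8659 pairs in 2414 genes. Pairs up to 18 bp apart differed in D share by a median of 2.06 percentage points (779 pairs) and lay on the same side of the overall D share in 87.8% of cases. At 19 to 50 bp the median gap was 4.50 points and 77.9% were on the same side, at 51 to 200 bp 5.32 and 69.5%, over 200 bp in 1 exon 6.33 and 65.1%, and in different exons 5.81 and 64.1%. Pearson's r between the members of a pair was 0.889, 0.770, 0.679, 0.561 and 0.522 in these classes, where pairs share libraries and, at short distance, the very same reads.

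The median gap that counting alone gives for independent reads was 3.20 points up to 18 bp, 3.43 at 19 to 50 bp, 3.64 at 51 to 200 bp, 4.14 over 200 bp and 3.75 across exons. The observed median was under it up to 18 bp and above it at every longer distance. One read can cover both SNPs up to 18 bp apart, and also those pairs at 19 to 50 bp that lie under 50 bp apart. A gap of 30 points or more was found in 8 of 779 pairs up to 18 bp apart and in 140 of 5095 pairs across exons (2.75%). Within single pools the median gap was 2.23 to 2.65 points up to 18 bp and 6.92 to 7.09 across exons, so the nearest pairs were closer than pairs across exons in each of the 4 pools.

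**Figure D3:**
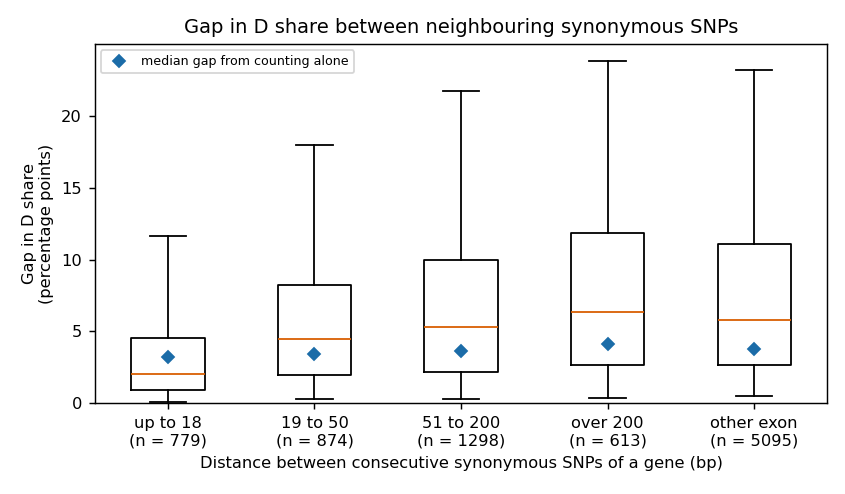
The boxes show the gap in D share between consecutive synonymous SNPs of a gene (y axis, percentage points) by their distance (x axis, bp, with the number of pairs). Boxes span the quartiles, whiskers the 5th to 95th percentile, and the diamonds, which give the median gap from counting alone, lie above the median gap of 2.06 points up to 18 bp and under the median gap at the longer distances.

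Sums from other parts of the same gene gave a reading with other SNPs. Of 2327 genes with both synonymous and non-synonymous sums, 167 were called in both, and 154 of these (92.2%) had the same direction, with a median absolute difference of 0.69 between the log2 ratios. For 3' untranslated regions, 146 of 2801 genes were called in both and 136 (93.2%) had the same direction, with a median difference of 0.53. Among all 342 genes called from synonymous SNPs with a sum in the 3' untranslated region, 270 had the same sign there. These sums share libraries, so the counts describe the classes and carry no test.

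Opposite directions were seen in well covered genes too. Eif4ebp1, a repressor of translation that insulin signalling inactivates, had synonymous D shares of 35.6%, 36.4%, 36.8% and 34.2% (4030 B and 2246 D reads, log2 ratio -0.74, edgeR adjusted p = 0.00627) and a 3' untranslated region in favour of D (1354 B and 1961 D reads, 0.65, adjusted p = 0.002). Nisch had 904 B and 1193 D synonymous reads against 362 B and 145 D non-synonymous reads. H2-T23 had a synonymous log2 ratio of -3.28 and a non-synonymous ratio of 1.69 (1942 B and 5822 D reads). Its synonymous SNPs were the one with no D read described above and one with 86 B and 277 D reads. These 3 genes were picked after their values were seen, as those with most reads of the weaker allele.

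**Figure D4:**
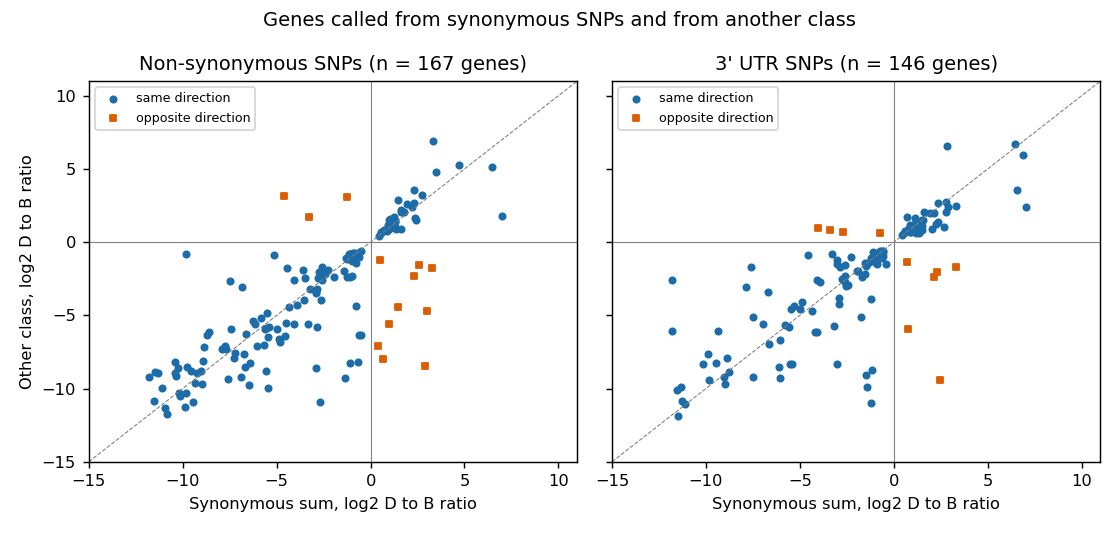
Each point is a gene called from its synonymous sum (x axis, log2 D to B ratio) and from another class of SNP (y axis, log2 D to B ratio): non-synonymous on the left (167 genes), 3' untranslated region on the right (146 genes). Blue circles have the same direction in both and orange squares the opposite one, and the dashed line marks equal ratios.

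The pathway lists were covered only in part by synonymous SNPs. Of 26 listed genes of antigen presentation by MHC, 17 had a synonymous sum, with 5 called for B (11.1% of all sums were), 2 for D (4.07% of all sums) and a median log2 D to B ratio of 0.02 (all sums -0.04). The class I genes H2-D1 (48491 B and 5995 D reads, log2 ratio -2.92 ± 0.16) and H2-K1 (-2.29 ± 0.26) were higher from B, and the class II chain H2-Eb1 (9392 B and 14922 D reads, 0.76 ± 0.17) and Ciita, the activator of class II genes (0.89 ± 0.20), were higher from D. Within H2-Eb1 the SNPs were called in opposite directions. Position 34451995 was called for B (2856 B and 1560 D reads) and position 34451149 for D (6536 B and 13362 D reads). The genes with most reads, B2m (39235 B and 32839 D reads, edgeR adjusted p = 0.569, with the block 1.70e-05) and H2-Ea (28622 and 35089, adjusted p = 0.126, with the block 3.52e-13), were not called. The H2-Ea sum joins SNPs called in opposite directions. Position 34421366 of chromosome 17 had 3802 B and 1915 D reads, and position 34480601, 59235 bp away, had 1 B and 1012 D reads. Class I genes are near-identical to each other, and their values are uncertain. H2-T22 had 92 B and 0 D reads at its 1 SNP (at least 30.7-fold higher from B if D carries the listed base, which was not tested). Without SNPs of under 1% from one allele, H2-K1 and H2-D1 were still called for B, and H2-T22 had no SNP left. In that setting H2-DMb1 was not called (log2 ratio -0.15, edgeR adjusted p = 0.836) and H2-T23 was called for D (1.79, edgeR adjusted p = 0.00148).

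Among lipid storage and lipolysis genes 6 of 26 had a synonymous sum, with 2 called for B, 1 for D and a median of -0.08. Lpin1, a phosphatidate phosphatase of triglyceride synthesis, had D shares of 29.7%, 33.6%, 33.5% and 36.0% (5726 B and 2862 D reads, log2 ratio -0.88 ± 0.20), and Lpl was described above. Dgat2, the last enzyme of triglyceride synthesis, had 15166 B and 16729 D reads (edgeR adjusted p = 0.702, with the block 6.36e-07). Fabp5, a fatty acid binding protein, had 26 B and 0 D reads at its 1 SNP (at least 8.67-fold higher from B if D carries the listed base, which was not tested). Of 31 genes of fatty acid and sterol synthesis 6 were covered and 1 was called, Acaca for B, from 28 B and 2 D reads only, while its 3' untranslated region favoured D (1153 B and 1879 D reads). Acacb had 8568 B and 8658 D reads (edgeR adjusted p = 0.774, with the block 0.0264) and Thrsp 4271 and 1725 (0.0662, with the block 1.06e-14). Of 24 oxidation genes 7 were covered, and Acaa1a, which rests on 1 SNP, was the one called, while the dehydrogenase Acadl had 6145 B and 3950 D reads (edgeR adjusted p = 0.0501, with the block 3.68e-09). The medians of these 2 lists were -0.42 and -0.30.

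Adipocyte transcription factors (12 of 27 covered, median 0.10) had 1 call, for D, in the oxysterol receptor Nr1h2 (4767 B and 6006 D reads, 0.44 ± 0.12). Cebpa, a driver of adipocyte differentiation, had 50.1%, 49.5%, 50.1% and 50.5% D in the libraries labelled BxD_female, DxB_female, BxD_male and DxB_male (edgeR adjusted p = 0.755, with the block 0.0113). Insulin signalling and glucose uptake genes (9 of 26, median -0.05) had 1 call for D, Gsk3b, from 34 B and 68 D reads, which DESeq2 did not make and which was lost without SNPs of under 1% (edgeR adjusted p = 0.0674). Extracellular matrix and basement membrane genes (12 of 32, median 0.13) had 0 calls by edgeR (0 at an unadjusted p under 0.05, 0 called by DESeq2), and Col3a1 had 21289 B and 17466 D reads (edgeR adjusted p = 0.564, with the block 2.92e-05). With the pool as a block, the 7 lists had, in the order given here, 8 and 5, 3 and 2, 3 and 1, 4 and 0, 1 and 2, 2 and 1, and 2 and 5 genes called for B and for D, where 26.5% of all sums were called. DESeq2 called 7, 3, 1, 2, 1, 0 and 0 genes of the lists in that order.

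Parent of origin was examined by comparing maternal with paternal alleles across the crosses. Under the labels no synonymous sum was called by edgeR (0 of 5091, against 0.00% of all sums), with 49 at an unadjusted p under 0.05 and 0 called with the pool as a block. Under the file names 3 were called (0.0815% of all sums were): Sgce, an epsilon sarcoglycan, Plagl1, a zinc finger transcription factor, both known as paternally expressed, and Zim1, known as maternally expressed. The Sgce member (position 4639647 of chromosome 6) had D shares of 99.6%, 99.4%, 2.66% and 0.621% in the libraries labelled BxD_female, DxB_female, BxD_male and DxB_male, from 3 B and 838 D, 4 and 616, 658 and 18, and 480 and 3 reads. The 4 Plagl1 members gave 99.8%, 99.8%, 3.38% and 0.519% (3 B and 1489 D, 3 and 1683, 629 and 22, and 383 and 2 reads). The Zim1 member gave 0%, 0%, 97.7% and 100% (84 B and 0 D, 45 and 0, 2 and 84, and 0 and 36 reads). In each gene the libraries fell into the same 2 pairs, without overlap, and the pairs are the crosses of the file names and the sexes of the labels. The edgeR adjusted p under the file names was 2.09e-15 for Sgce, 7.49e-16 for Plagl1 and 6.51e-10 for Zim1, and under the labels all 3 were at 1.

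The strain by sex test asked whether the D to B ratio differs between males and females. Under the labels it called the same 3 genes (0.0878% of all sums were called), as the pairs above are then read as sexes. Under the file names it called 2 (0.0188% of all sums): Car3, through the single library described above, and Prom1, a membrane glycoprotein of epithelial cells. Prom1 had 4 B and 11 D, 99 B and 26 D, 2 B and 16 D, and 37 B and 15 D reads in the libraries labelled BxD_female, DxB_female, BxD_male and DxB_male. Its D shares were 73.3%, 20.8%, 88.9% and 28.8%, high in the 2 libraries with few reads and low in the 2 with more (edgeR adjusted p = 1.64e-04). Neither call under the file names remained when the library labelled DxB_female or the one labelled DxB_male was left out.

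**Figure D5:**
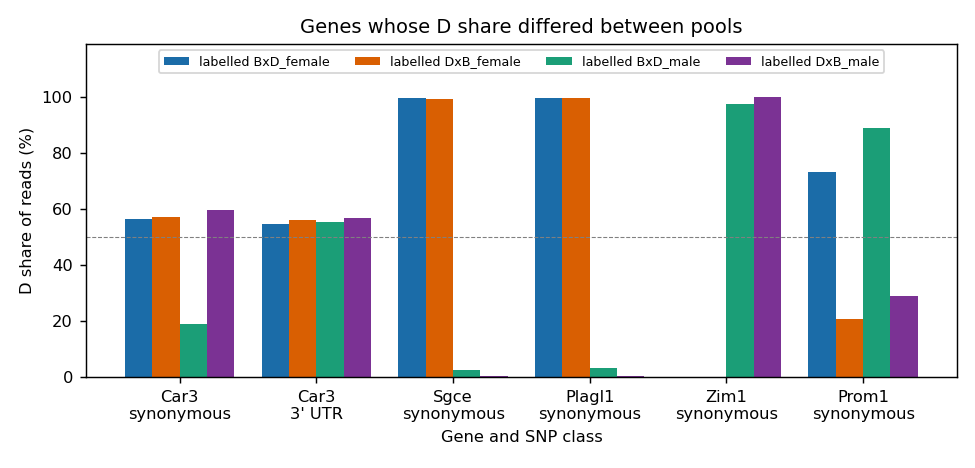
Bars give the D share of reads (y axis, %) in each of the 4 pools, named by label, for the synonymous SNP of Car3, the sum of its 3' untranslated region and the synonymous sums of Sgce, Plagl1, Zim1 and Prom1 (x axis), with a dashed line at 50%. Sgce, Plagl1 and Zim1 split the pools into the pair labelled female and the pair labelled male, and the Car3 synonymous bar of the library labelled BxD_male stands apart at 18.9% while its 3' untranslated region is at 55.6%.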

How the data were processed

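The 4 deposited files give, for each SNP, raw counts of reads with the B and the D base, without normalization. Per the paper's methods the authors aligned paired 50 base reads as single ends to mm9 with mrsFAST (up to 3 mismatches, with D variants stated as masked, which its supplement leaves uncertain) and the rest with TopHat (version 1 in the submitters' processing notes, which also name CASAVA), and counted uniquely mapped reads at known SNPs. Rows without a base difference between the strains (52 synonymous) were left out. The chromosome coded 22 was read as X, since all its B bases equal that of NCBIM37.

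Here, counts were summed per gene and annotation class after keeping the first SNP of any group within 18 bp, or left per SNP. The 8 allele libraries (1582681 to 2291861 counts each) were compared with edgeR 4.0.16 in R 4.3.3 (TMM, quasi-likelihood, Benjamini-Hochberg over the whole table, threshold 0.05). Standard errors were derived from each log2 ratio and its F statistic. The fits were tested on simulated counts. The alleles of a pool deviated together (r = 0.393 to 0.547 over 8575 sums), and come from the same RNA, so the pool pairs them, and blocked values are given where a call changes. Alternatives were DESeq2 1.42.0, a single library size per pool, at least 10 reads, the block, other distances between SNPs, removal of SNPs with under 1% of reads from either allele, the file-name identity and each pool left out. Shares have 95% Wilson intervals. A share of 0 allows 3 counts of the total. Intervals and floors cover counting error only and take counts as independent. Codons came from NCBIM37 and GENCODE M1. The meaning of the flag column was not given in the sources used here.

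Genes named were the 7 largest and 7 smallest log2 ratios among called sums with 1 direction in all pools and 20 or more reads of the weaker allele, the 5 with most synonymous reads, the 3 with most members, the 5 widest opposite SNP calls, the 4 deepest SNPs counted from B alone with Stat3 and Adra2c, list examples with most reads, and calls by parent or sex. Members counted from D alone, genes with opposite classes, Btbd9, and called list genes outside that rule were chosen after their values were seen. Some genes that the rule names are not reported here. Members and lists were chosen with earlier results of these data known. Python 3.11.15 with pandas 2.3.3, numpy 2.4.6, scipy 1.17.1, pysam 0.24.0 and matplotlib 3.10.9 made tables and figures.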

Additional observations from a re-analysis of the deposited data

Results flagged for a closer look

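For the values given per pool, the gap of the highest or lowest pool to its nearest neighbour was divided by the whole range, and 25 values were examined, of which chance gives about 1 in 20 with a pool apart. In the B to D ratio of all synonymous reads this fraction was 0.918, with the library labelled BxD_male at 1.19 and the others between 1.09 and 1.10. In the Car3 D share it was 0.923, with the same library at 18.9% and the others between 56.5% and 59.7%. The 2 values are not independent, since Car3 held 4.00% of the synonymous reads of that library, and without it the ratios were 1.11 to 1.14.

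The log2 D to B ratio differed between males and females (male minus female) by -14.39 in Plagl1, -13.39 in Sgce and 14.65 in Zim1 under the labels, and by 1.23 in Car3 and -3.83 in Prom1 under the file names, each past the edgeR interaction test over all sums. The first 3 values depend on the prior count that edgeR adds, because alleles are at or near 0, and are no bounds. Sex under the labels and cross under the file names divide the 4 libraries in the same way, and the X chromosome shares go against the labels of 2 libraries.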

How the results depend on the processing

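Of the 625 synonymous gene calls, the alternatives gave 599 to 656 apart from 3: 1352 with the pool as a block (709 for B, 643 for D), 351 without SNPs of under 1% from either allele (184 for B), and 458 to 542 with a pool left out (303 to 345 for B, 155 to 197 for D). SNP calls were 3516 with the block, 1196 without such SNPs and 1473 to 1699 with a pool left out. Genes with opposite SNP calls numbered 151, 24 and 39 to 47 in the same settings. The same-direction share with 3' untranslated regions became 97.3%, that with non-synonymous SNPs 89.9% and the B to D ratio 1.04 without SNPs of under 1%. The median gap of neighbouring SNPs was 4.66 points at 50 reads or more and 5.32 to 5.49 with a pool left out, against 5.22. Parent of origin calls went from 0 to 3 under the file names, 4 with the block added (Nnmt was the fourth), 2 without allele strain, and 0 to 4 with a pool left out under the labels (4 without the library labelled BxD_female). Strain by sex calls were 3 to 4 with a pool left out under the labels, and under the file names 0 to 6: 0 without the library labelled DxB_female, 0 without DxB_male and 6 without BxD_female. Without SNPs of under 1%, 9 of the 625 called genes changed sign, among them Acaa1a (0.35) and H2-T23 (1.79, edgeR adjusted p = 0.00148). Signs also turned for C4a (0.72) and Morn4 (2.16) without SNPs of under 1%, for Rps3 (-0.47) with SNPs over 50 bp apart, for Morn4 (0.028) without the 18 bp filter, and for Car3 with the block (-0.017), and with a pool left out from -0.12 (without the library labelled DxB_male, and -0.07 without DxB_female) to 0.57 (without BxD_male). Ptrf had no SNP left without those of under 1%. The settings that combine the file names with the block, with no allele strain or with a pool left out, the flag and Car3 removed were chosen after seeing the data. The block changed no other call of a named gene than those given beside it. Causes of these changes were not tested. Each cross and sex had 1 pool, members with under 10 reads (3624) could rarely be called, and removal of SNPs of under 1% does not separate a silent allele from a SNP at which the strains carry the same base.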

Other observations

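Btbd9, chosen after its values were seen for its spread between pools, had 57 B and 43 D, 51 B and 28 D, 57 B and 0 D, and 31 B and 29 D reads at its synonymous SNP (position 30664436 of chromosome 17) in the libraries labelled BxD_female, DxB_female, BxD_male and DxB_male. The library without a D read allows a D share of up to 5.26%. At its non-synonymous SNP, at position 30667147, the counts were 39 and 40, 41 and 20, 23 and 1, and 23 and 20. Unlike Car3, where the departure of the same library was at the synonymous SNP and not at the 9 SNPs of the 3' untranslated region, both exonic SNPs of Btbd9 had few D reads in that library. No test was made of either, and the sum of Btbd9 was not called for strain (edgeR adjusted p = 0.332, with the block 0.0353).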
